A study of Mus musculus with 4 samples.

Results

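Splicing factors and heterogeneous nuclear ribonucleoproteins (hnRNPs) are the proteins that cut introns out of newly made RNA and choose which exons are joined. Their genes were taken by name as the gene models SRSF followed by a number, HNRNP, SF3A or SF3B, PRPF, SNRNP, and SNRP followed by A to G. This gave 153 of the 38588 gene models in the files, of which 65 had reads and 59 passed the filter on low counts and were tested. All 153 lay on human chromosomes 1 to 8, 11, 12, 14 to 17 and 19, so that genes on other chromosomes were not measured here. No model of SRSF6, SF3A1, SNRPB, PRPF6 or HNRNPK was among the 153, so the name groups below are not whole families. Sums and ranks within a group hold for the listed models only. Of the 88 models with no reads, 86 carry pseudogene names such as HNRNPA1P1, and the other 2 were SRSF8 and SNRNP35. The 6 models with reads that were not tested had at most 28 exon reads over all libraries.

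The data came from 2 libraries of RbLoTem cells, sorted as CD4+ FoxP3- CD45RbLo CD44+ CD62L- effector/memory T cells, and 2 libraries of RbHiTn cells, sorted as CD4+ FoxP3- CD45RbHi CD44- CD62L+ naive T cells. Both came from spleens of resting C57BL/6-Foxp3tm1Flv/J mice, which carry a reporter allele at the Foxp3 gene, and both were stimulated through CD3 on wells coated with 2 μg of antibody for 72 h before mRNA was taken, so that no unstimulated cells enter the comparison. The sources used here do not give the ages of the mice or the number pooled per library. Nothing states separate cultures or animals, so each p-value rests on the spread between libraries that may differ only technically. Libraries 1 and 2 of each subset are those without and with the suffix o in their label. In bulk samples such as these, fewer cells of a type and less RNA per cell cannot be told apart.

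Introns are removed by the spliceosome, which is built from small nuclear RNAs and proteins. The U1 particle reads the start of the intron, and the U2 particle with its SF3A and SF3B proteins reads the branch point. Some SNRP genes encode the ring of Sm proteins that holds most of the small nuclear RNAs. The other SNRP genes, the SNRNP genes and the PRPF genes encode proteins of single particles, U1 and U2 among them, or proteins that build and activate the catalytic core. SR proteins (SRSF genes) bind exons and promote their use, whereas hnRNPs often silence exons and also steer the export, stability and translation of mRNA. HNRNPLL has a place of its own in T cells, where it silences the variable exons of PTPRC, the gene of CD45, and so lowers the CD45 isoforms that carry the Rb epitope used for this sort.

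Exon reads numbered between 3795660 and 5873287 per library, and the members took 5.13% and 5.10% of them in RbLoTem cells and 5.56% and 5.74% in RbHiTn cells. The files list human gene models for these mouse cells, so that a mouse transcript unlike the human sequence can be undercounted and a model without reads does not show a silent gene. Of 15 T cell markers 12 had reads, with CD2, CD28 and CD3D at 0 in every library, and their summed RPKM (reads scaled to the exon length of the model and to the reads of the library) was 228 and 242 in RbLoTem cells and 302 and 293 in RbHiTn cells. Markers of B cells moved with the subsets. Of 9 B cell models 7 had reads, with CD79B and CD22 at 0, and their summed RPKM was 0.278 and 0.368 in RbLoTem cells and 9.14 and 10.1 in RbHiTn cells. Of 11 models of monocytes, macrophages and dendritic cells 4 had reads, with CD14, CSF1R and LYZ among those at 0, and their summed RPKM was 0.455 and 0.721 in RbLoTem cells and 4.29 and 3.97 in RbHiTn cells. The part of such cells in the differences below was not tested.

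Differences in the splicing genes between the activated subsets were small. Of the 59 tested members, 11 were higher in RbLoTem cells, 18 were lower and 30 did not pass the test (edgeR, adjusted p under 0.05 over all 6539 tested models). This is 49.2% of the members called, beside a background of 48% of all tested models, of which 24.3% were higher and 23.6% were lower. The median log2 fold change of RbLoTem over RbHiTn was -0.077 for members and -0.012 for all models, and the median of its absolute size was 0.17 for members and 0.32 for all models. Called changes of at least 0.5 on the log2 scale were found for 2 members, HNRNPA3 and SNRPG (3.39% of the members), beside 27.8% of all models. No member was called with a change of 1 or more, a size that 929 of all tested models reached.

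**Figure D1:**
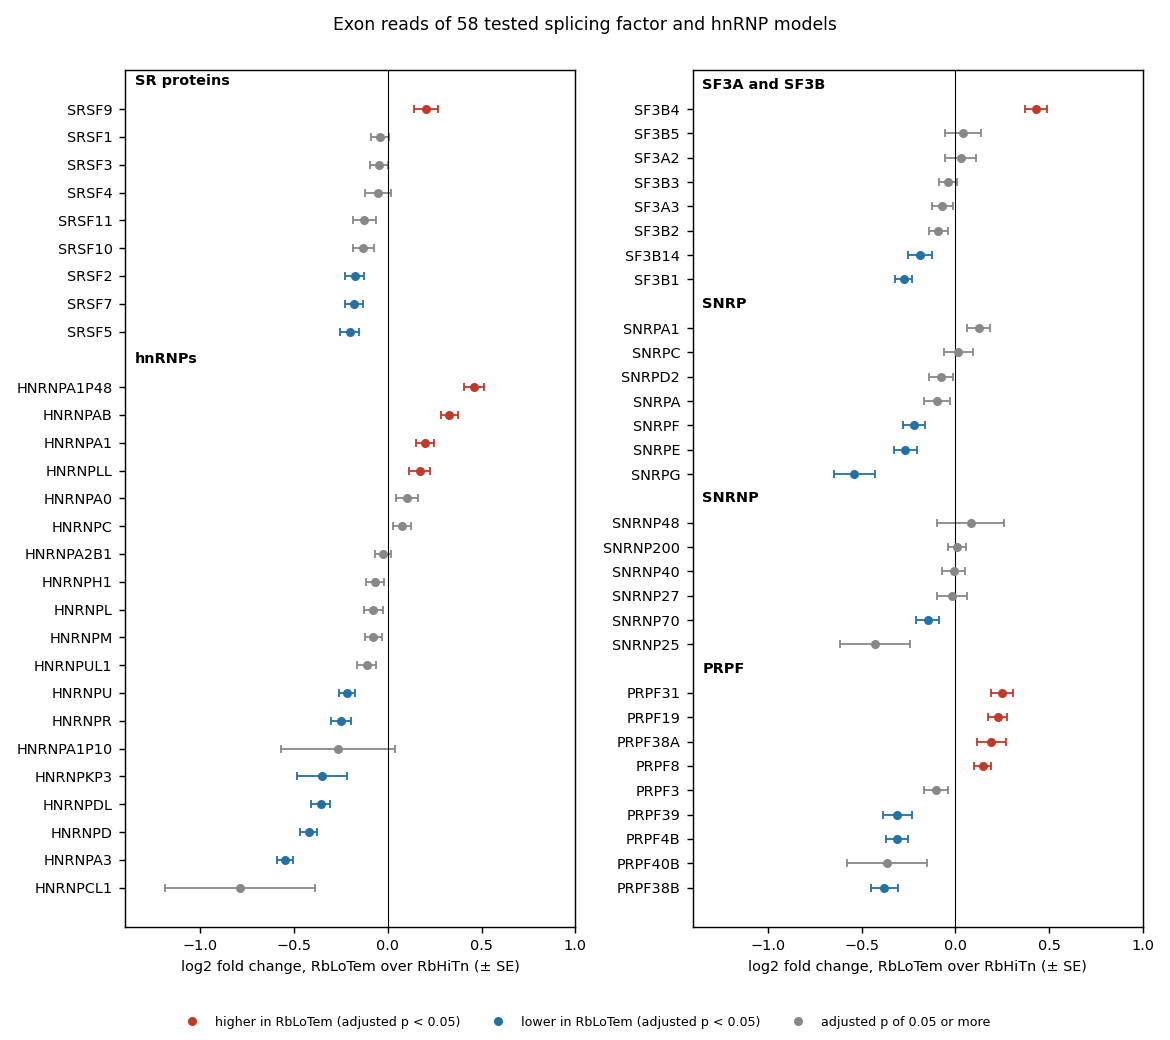
Log2 fold change of exon reads, RbLoTem over RbHiTn, on the horizontal axis for 58 of the 59 tested models, which are listed down the page by name group; bars are 1 standard error from edgeR. Points to the right of the line at 0 were higher in RbLoTem cells, colour marks 10 higher and 18 lower calls, and all calls plotted lie between -0.55 and 0.46.

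Members had high RPKM and were therefore measured closely, although RPKM on human models also depends on how alike the mouse sequence is. Their median RPKM over the 4 libraries was 92.2, against 6.23 for all tested models, and the median standard error of their log2 fold change was 0.058, against 0.14. At an RPKM of 20 or more, a level chosen after the values were seen, lay 53 of the 59 members and 1709 of all tested models. Of those 1709 models 60.5% were called, with a median absolute log2 change of 0.21. The libraries of the subsets did not overlap in RPKM for 49 of the 59 members, beside 72.3% of all models. Both RbLoTem libraries were above both RbHiTn libraries for 14 of the 59 members, where the share of all models is 34.8%. The RbLoTem libraries were below for 35, where it is 37.6%. Of the 49 members without overlap 20 did not pass the test.

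**Figure D2:**
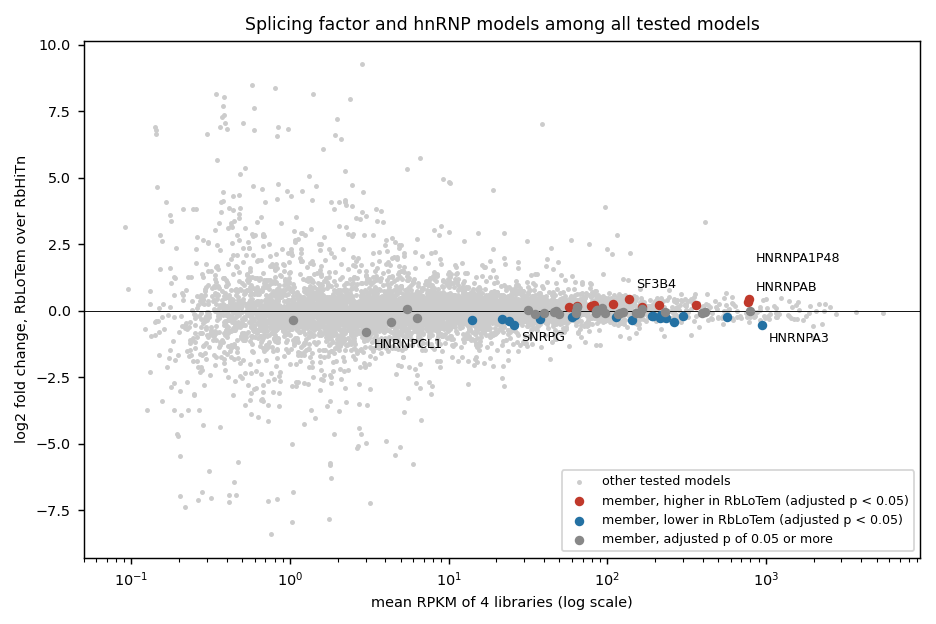
Mean RPKM of the 4 libraries (horizontal, log scale) against the log2 fold change of RbLoTem over RbHiTn (vertical) for 6539 tested models, with the 59 members in colour and the others in light grey. The members sit at the right, with a median RPKM of 92.2, and close to 0.

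Promoters of 4 members are shown because they hold the motifs counted below and because 2 of these genes were higher and 2 were lower in RbLoTem cells. Each is the 250 bases before the start of the mouse gene in RefSeq (GRCm38.p6), written in the direction of the gene. Capitals mark an E-box (CACGTG), an Ets core (CCGGAAG) or a CCAAT box on either strand. Hnrnpab lies at chr11:51606882-51607131 on the minus strand, Prpf19 at chr19:10894981-10895230 on the plus strand, Hnrnpa3 at chr2:75659009-75659258 on the plus strand and Prpf38b at chr3:108911730-108911979 on the minus strand.
Hnrnpab (higher): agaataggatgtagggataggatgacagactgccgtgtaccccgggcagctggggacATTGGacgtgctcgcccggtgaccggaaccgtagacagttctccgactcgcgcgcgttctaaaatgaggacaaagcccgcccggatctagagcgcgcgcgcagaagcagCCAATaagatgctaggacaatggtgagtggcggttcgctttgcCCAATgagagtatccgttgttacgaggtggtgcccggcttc
Prpf19 (higher): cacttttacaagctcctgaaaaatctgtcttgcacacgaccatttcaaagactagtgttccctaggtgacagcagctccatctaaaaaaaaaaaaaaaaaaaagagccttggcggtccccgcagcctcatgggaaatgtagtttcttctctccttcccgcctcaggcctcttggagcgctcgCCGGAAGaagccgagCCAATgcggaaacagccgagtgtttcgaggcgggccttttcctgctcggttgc
Hnrnpa3 (lower): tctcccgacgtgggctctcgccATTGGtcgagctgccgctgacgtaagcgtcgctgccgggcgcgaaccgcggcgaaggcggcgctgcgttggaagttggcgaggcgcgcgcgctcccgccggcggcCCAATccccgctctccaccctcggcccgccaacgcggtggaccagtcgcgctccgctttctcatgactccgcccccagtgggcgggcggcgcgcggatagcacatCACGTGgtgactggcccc
Prpf38b (lower): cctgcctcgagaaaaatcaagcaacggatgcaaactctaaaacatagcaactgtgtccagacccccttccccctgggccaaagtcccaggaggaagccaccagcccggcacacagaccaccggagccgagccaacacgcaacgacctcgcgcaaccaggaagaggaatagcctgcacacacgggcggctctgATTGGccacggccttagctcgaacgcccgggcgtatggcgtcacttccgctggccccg

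Of the 59 tested members 50 had a RefSeq promoter, 1 of them by another symbol (SF3B14 as Sf3b6). HNRNPCL1, SNRNP40, SF3B4, HNRNPLL, SF3B5, HNRNPKP3, HNRNPA1P48 and HNRNPA1P10 were among those not matched. The letters CCAAT, the core of the site read by NF-Y, stood in 24 of the 50 windows (48%) and in 34.5% of the windows of 27025 mouse genes. They stood in 6 of the 7 matched members that were higher, 6 of the 17 that were lower and 12 of the 26 that were not called. The letters CCGGAAG, the core read by Ets factors, stood in 16 of the 50 windows (32%) and in 7.05% of all windows. They stood in 1 of the 7 higher members, 6 of the 17 lower ones and 9 of the 26 others. CACGTG, an E-box of the kind read by Myc, stood in 5 of the 50 windows (10%) and in 6.05% of all windows. It stood in 0 of the 7 higher members, 3 of the 17 lower ones and 2 of the 26 others. Windows could hold several motifs, both strands were searched, and a match describes letters and not binding. The 27025 genes were taken whatever their expression, so that the members were not compared with other expressed genes.

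The hnRNPs held the most abundant member and the widest range of called changes. Of 95 HNRNP models 24 had reads and 19 were tested, of which 4 were higher in RbLoTem cells, 6 were lower and 9 did not pass the test. Summed over the group, RPKM was 5785 and 5803 in RbLoTem libraries and 5827 and 6101 in RbHiTn libraries, and single genes went in both directions. HNRNPA3, an A/B type hnRNP and the most abundant member, was at an RPKM of 764 and 763 in RbLoTem libraries and 1088 and 1159 in RbHiTn libraries. The groups were far apart beside the gap between libraries of a subset, with a log2 fold change of -0.55 ± 0.043 (SE, adjusted p = 2.23e-12 from edgeR). The human HNRNPA3 model spans chromosome 2 from 178077291 to 178088686 in the files, which do not name the build.

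HNRNPD, also called AUF1, which binds AU-rich elements and controls mRNA decay, was at 228 and 220 in RbLoTem libraries and 295 and 310 in RbHiTn libraries in RPKM. Its log2 fold change was -0.42 ± 0.046 (SE, adjusted p = 3.61e-09 from edgeR). Its relative HNRNPDL was at an RPKM of 127 and 124 in RbLoTem libraries and 158 and 166 in RbHiTn libraries, a log2 fold change of -0.36 ± 0.050 (adjusted p = 4.82e-07 from edgeR). For both genes no RbLoTem library came near an RbHiTn library. HNRNPU, a protein of the nuclear scaffold, fell by 0.22 on the log2 scale (adjusted p = 7.3e-05 from edgeR), with an RPKM of 531 and 515 in RbLoTem libraries against 610 and 613 in RbHiTn libraries. HNRNPR, known in neurons for RNA transport, fell by 0.25 (adjusted p = 0.000215 from edgeR). Part of the HNRNPU model overlaps HNRNPU-AS1, an antisense model with at most 8 exon reads in a library.

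HNRNPAB, an A/B type hnRNP that binds mRNA for transport, went the other way. Its RPKM was 868 and 852 in RbLoTem libraries and 681 and 697 in RbHiTn libraries, with no overlap and a log2 fold change of 0.33 ± 0.046 (SE, adjusted p = 3.94e-07 from edgeR). The model overlaps that of PHYKPL, whose reads may be shared with it. HNRNPA1, the classic silencer of exons, was at an RPKM of 387 and 387 in RbLoTem libraries and 339 and 340 in RbHiTn libraries, a log2 fold change of 0.20 ± 0.048 (adjusted p = 0.000942 from edgeR). HNRNPA1P48, a pseudogene copy of HNRNPA1, had the largest increase of all members, with an RPKM of 871 and 926 in RbLoTem libraries against 628 and 689 in RbHiTn libraries and a log2 fold change of 0.46 ± 0.054 (adjusted p = 1.46e-08 from edgeR). Both values are uncertain, since 24.6% of the HNRNPA1 reads and 20.2% of the HNRNPA1P48 reads matched a single place.

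The other abundant hnRNPs did not pass the test. HNRNPA2B1, a partner of HNRNPA1 in the core hnRNP particle, was at an RPKM of 787 and 789 in RbLoTem libraries and 773 and 841 in RbHiTn libraries, so that both RbLoTem values lay between the RbHiTn values (log2 fold change -0.025 ± 0.044, adjusted p = 0.671 from edgeR). HNRNPM was at 382 and 382 in RbLoTem libraries and 402 and 410 in RbHiTn libraries (adjusted p = 0.161 from edgeR). HNRNPC, which binds runs of uridine, was at 172 and 167 in RbLoTem libraries and 159 and 165 in RbHiTn libraries (adjusted p = 0.182 from edgeR). HNRNPL, the paralog of HNRNPLL, was at 142 and 151 in RbLoTem libraries and 156 and 155 in RbHiTn libraries (adjusted p = 0.206 from edgeR), and 49.6% of its reads matched a single place. HNRNPH1, HNRNPA0, HNRNPUL1 and the low models HNRNPA1P10 and HNRNPCL1 were not called either. HNRNPUL1 passed as lower without TMM factors (adjusted p = 0.0232) and on unique reads (0.0493, edgeR). HNRNPCL1 had 18 and 8 exon reads in RbLoTem libraries and 26 and 18 in RbHiTn libraries, and passed the test only without RbLoTem library 1 (adjusted p = 0.0104, edgeR). HNRNPKP3 is a human pseudogene model of HNRNPK, which itself had no model, and need not stand for a mouse gene of its own. HNRNPKP3 was lower at an RPKM of 13.4 and 11.6 in RbLoTem libraries against 17.3 and 14.0 in RbHiTn libraries (adjusted p = 0.0289 from edgeR). Its call was lost without RbLoTem library 2 (adjusted p = 0.265) or RbHiTn library 1 (0.504, edgeR), and HNRNPK itself was not analysed here.

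HNRNPLL, the regulator of CD45 splicing, was slightly higher in the CD45RbLo subset. Its RPKM was 84.4 and 82.2 in RbLoTem libraries and 74.9 and 74.0 in RbHiTn libraries, from 2336 and 3131 exon reads against 2888 and 1837, all of them matched to a single place. The libraries of the subsets did not overlap. The log2 fold change was 0.17 ± 0.054 (SE, adjusted p = 0.00995 from edgeR), and the model spans human chromosome 2 from 38789120 to 38830728. The call was lost without the first RbLoTem library (adjusted p = 0.0694 from edgeR) and without the second RbHiTn library (adjusted p = 0.0853 from edgeR). PTPRC, whose variable exons HNRNPLL silences, had an RPKM of 59.9 and 64.0 in RbLoTem libraries and 87.4 and 92.7 in RbHiTn libraries, a log2 fold change of -0.53 ± 0.053 (adjusted p = 6.42e-10 from edgeR). The files count reads per gene and not per exon, so that the CD45 isoforms, by which the cells were sorted as proteins, were not measured here.

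SR proteins changed little. Of 11 SRSF models 10 had reads and 9 were tested, of which 1 was higher in RbLoTem cells, 3 were lower and 5 did not pass the test. SRSF1, the founding SR protein and the most abundant of the group, was at an RPKM of 405 and 403 in RbLoTem libraries and 403 and 434 in RbHiTn libraries, with overlapping groups (log2 fold change -0.042 ± 0.048, adjusted p = 0.51 from edgeR). SRSF3, a small SR protein that also serves mRNA export, was at 230 and 225 in RbLoTem libraries and 231 and 243 in RbHiTn libraries (adjusted p = 0.428 from edgeR). SRSF4, SRSF10 and SRSF11 were likewise not called, although SRSF10 passed as lower without RbLoTem library 1 (adjusted p = 0.0231), without TMM factors (0.0183), with the filter at 50 reads (0.0455) and on unique reads (0.0258, edgeR). SRSF11 passed as lower without RbHiTn library 1 (adjusted p = 0.0395) and without TMM factors (0.0491, edgeR). SRSF9 was the one higher member of the group, at an RPKM of 88.0 and 89.7 in RbLoTem libraries and 78.9 and 76.1 in RbHiTn libraries (log2 fold change 0.20 ± 0.064, adjusted p = 0.0096 from edgeR), a call lost without the second library of either subset (adjusted p = 0.0602 without RbLoTem library 2 and 0.108 without RbHiTn library 2, edgeR).

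SRSF5, which binds exonic enhancers, was lower at an RPKM of 179 and 184 in RbLoTem libraries against 213 and 207 in RbHiTn libraries (log2 fold change -0.20 ± 0.049, adjusted p = 0.000767 from edgeR). SRSF7, an SR protein that joins SRSF3 in mRNA export, was at 278 and 281 in RbLoTem libraries and 314 and 325 in RbHiTn libraries (log2 fold change -0.18 ± 0.047, adjusted p = 0.00176 from edgeR). Neither gene had overlapping groups. SRSF2, also known as SC35, was at an RPKM of 203 and 204 in RbLoTem libraries and 229 and 234 in RbHiTn libraries (log2 fold change -0.18 ± 0.051, adjusted p = 0.00486 from edgeR). It is uncertain, because 19.1% of its reads matched a single place and its model overlaps that of MFSD11. On unique reads alone its log2 fold change was 0.013 (adjusted p = 0.909 from edgeR).

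Among the U2 proteins 1 of the 8 tested SF3A and SF3B members was higher in RbLoTem cells and 2 were lower. SF3B4, which grips the RNA upstream of the branch point, had the largest increase among members counted mainly from unique reads. Its RPKM was 158 and 157 in RbLoTem libraries and 117 and 118 in RbHiTn libraries, nearly the same within each subset, with a log2 fold change of 0.43 ± 0.058 (SE, adjusted p = 2.38e-07 from edgeR). SF3B1, the scaffold that closes around the branch point, was at 199 and 189 in RbLoTem libraries and 233 and 239 in RbHiTn libraries (log2 fold change -0.28 ± 0.046, adjusted p = 7.39e-06 from edgeR). SF3B14, the subunit that touches the branch point adenosine, was at 187 and 174 in RbLoTem libraries and 211 and 200 in RbHiTn libraries (log2 fold change -0.19 ± 0.064, adjusted p = 0.0156 from edgeR), a call lost without RbLoTem library 2 (adjusted p = 0.181, edgeR) or without RbHiTn library 1 (adjusted p = 0.201, edgeR). Called changes thus went in both directions, which does not set this group apart. Its called share was 37.5%, beside 48% of all tested models, of which 24.3% were higher and 23.6% were lower. SF3A2, SF3A3, SF3B2, SF3B3 and SF3B5 did not pass the test, with log2 fold changes between -0.091 and 0.040, although SF3B2 passed as lower without TMM factors (adjusted p = 0.0487, edgeR).

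The Sm and small U proteins had no member that was higher on total exon reads. Of 21 SNRP models 7 had reads and were tested, and 3 were lower, all of them parts of the Sm ring. SNRPG had an RPKM of 21.1 and 21.2 in RbLoTem libraries and 31.4 and 30.3 in RbHiTn libraries, a log2 fold change of -0.54 ± 0.11 (SE, adjusted p = 0.000124 from edgeR). SNRPE was at 228 and 198 in RbLoTem libraries and 254 and 260 in RbHiTn libraries (log2 fold change -0.27 ± 0.062, adjusted p = 0.00062 from edgeR), and 72.2% of its reads were unique. SNRPF was at 107 and 102 in RbLoTem libraries and 126 and 119 in RbHiTn libraries (log2 fold change -0.22 ± 0.059, adjusted p = 0.00233 from edgeR). In all 3 genes the subsets did not overlap, but the SNRPE call was lost without RbLoTem library 2 (log2 fold change -0.16, adjusted p = 0.0651, edgeR) and the SNRPF call without RbHiTn library 1 (adjusted p = 0.069, edgeR). The fourth Sm ring gene tested, SNRPD2, was at an RPKM of 119 and 117 in RbLoTem libraries and 125 and 124 in RbHiTn libraries (adjusted p = 0.361 from edgeR). SNRPA and SNRPC of the U1 particle and SNRPA1 of the U2 particle did not pass the test, and SNRPB was not analysed here. SNRPA1, with 76.8% of its reads unique, passed as higher on unique reads (log2 fold change 0.16, adjusted p = 0.0444 from edgeR).

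Of 7 SNRNP models 6 had reads and were tested, and SNRNP70 alone was called. SNRNP25, at an RPKM of 3.92 and 3.45 in RbLoTem libraries and 4.97 and 4.91 in RbHiTn libraries, did not pass (adjusted p = 0.0573 from edgeR), but passed as lower without TMM factors (0.0431), on unique reads (0.0382) and with limma on both log scales (0.0437 and 0.0251). SNRNP70, the U1 protein that SR proteins contact, was at an RPKM of 55.6 and 62.0 in RbLoTem libraries and 64.7 and 66.8 in RbHiTn libraries (log2 fold change -0.15 ± 0.062, adjusted p = 0.0495 from edgeR). This call was lost in 12 of the 16 alternative analyses, among them those without RbLoTem library 1 (log2 fold change -0.075, adjusted p = 0.399, edgeR), RbHiTn library 1 (adjusted p = 0.107) and RbHiTn library 2 (adjusted p = 0.146). Without RbLoTem library 2 the log2 fold change was -0.23 (adjusted p = 0.0157, edgeR). SNRNP200, the helicase that unwinds the U4 and U6 RNAs and the most abundant of the group, was at 84.8 and 86.3 in RbLoTem libraries and 85.6 and 85.3 in RbHiTn libraries (log2 fold change 0.0095 ± 0.049, adjusted p = 0.894 from edgeR). Its groups overlapped.

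PRPF genes had the highest share of called members, 8 of 10 (80%), with 5 higher in RbLoTem cells and 3 lower. The other name groups ran from 16.7% (SNRNP) to 52.6% (HNRNP). Of all tested models 48% were called, and 60.5% of those at an RPKM of 20 or more. The PRPF share rests on 10 models. The summed RPKM of the PRPF genes was 760 and 764 in RbLoTem libraries and 696 and 716 in RbHiTn libraries. PRPF31, which holds the U4 and U6 particle in the tri-snRNP, was at an RPKM of 115 and 119 in RbLoTem libraries and 99.6 and 98.8 in RbHiTn libraries (log2 fold change 0.25 ± 0.060, adjusted p = 0.00084 from edgeR). Its model overlaps that of TFPT. PRPF19, the ubiquitin ligase of the complex that activates the spliceosome, was at 226 and 229 in RbLoTem libraries and 195 and 196 in RbHiTn libraries (log2 fold change 0.23 ± 0.052, adjusted p = 0.000488 from edgeR). PRPF38A, a protein of the precatalytic spliceosome, was at 72.6 and 65.7 in RbLoTem libraries and 60.3 and 61.1 in RbHiTn libraries (log2 fold change 0.19 ± 0.077, adjusted p = 0.0402 from edgeR). That call was lost without RbLoTem library 1, RbHiTn library 1 or RbHiTn library 2 (adjusted p of 0.262, 0.17 and 0.139 from edgeR), and its log2 fold change was 0.12 without RbLoTem library 1. PRPF8, the scaffold of the catalytic core, was at 171 and 179 in RbLoTem libraries and 156 and 162 in RbHiTn libraries (log2 fold change 0.15 ± 0.046, adjusted p = 0.0088 from edgeR). The PRPF8 call was lost without RbLoTem library 2 (adjusted p = 0.127) or RbHiTn library 1 (0.0819, edgeR).

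The 3 lower PRPF genes were PRPF38B, PRPF4B and PRPF39. PRPF38B was at an RPKM of 21.7 and 20.2 in RbLoTem libraries and 26.3 and 28.4 in RbHiTn libraries (log2 fold change -0.38 ± 0.073, adjusted p = 5.39e-05 from edgeR). PRPF4B, a kinase of tri-snRNP proteins, was at 34.1 and 33.3 in RbLoTem libraries and 41.2 and 43.0 in RbHiTn libraries (log2 fold change -0.31 ± 0.059, adjusted p = 4.5e-05 from edgeR). PRPF39, related to a U1 protein of yeast, was at 19.3 and 19.4 in RbLoTem libraries and 23.7 and 24.7 in RbHiTn libraries (log2 fold change -0.31 ± 0.077, adjusted p = 0.00118 from edgeR), and its model overlaps that of FKBP3. In each of these genes the RbLoTem libraries lay below both RbHiTn libraries. PRPF3 and PRPF40B did not pass the test.

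**Figure D3:**
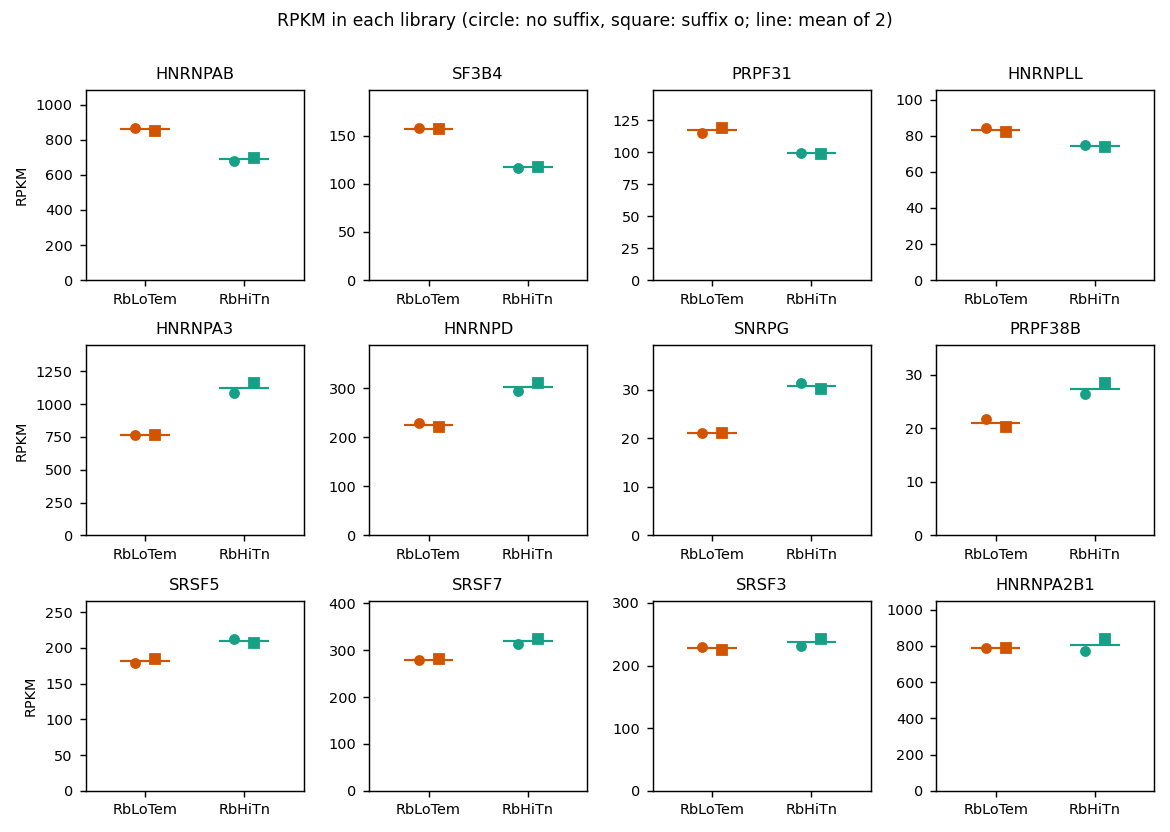
RPKM (vertical, from 0) of 12 members in the 2 RbLoTem libraries (left in each panel) and the 2 RbHiTn libraries (right); circles are libraries without and squares libraries with the suffix o, and lines are means. HNRNPAB, SF3B4, PRPF31 and HNRNPLL in the top row lie higher in RbLoTem cells, the genes of the middle row with SRSF5 and SRSF7 lie lower, and HNRNPA2B1 overlaps.

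Other splicing genes outside these name groups were listed by their roles. Of 169 such genes models were found for 130. Reads fell on 126 of the 130, all on human chromosomes that also hold members. Of these 122 passed the filter, and 15 were higher in RbLoTem cells and 27 were lower (34.4% called, beside 48% of all models, median log2 fold change -0.064). Called changes of at least 0.5 on the log2 scale were found for 3 of them, SRPK2, GEMIN6 and LUC7L2. The largest decrease was that of SRPK2, a kinase of SR proteins, with 211 and 297 exon reads in RbLoTem libraries and 801 and 566 in RbHiTn libraries. Its RPKM was 8.03 and 8.21 in RbLoTem libraries and 21.9 and 24.0 in RbHiTn libraries, a log2 fold change of -1.48 ± 0.089 (adjusted p = 2.96e-15 from edgeR). CLK4, another kinase of SR proteins, fell by 0.49 on the log2 scale (adjusted p = 5.82e-05 from edgeR), and among kinases and other SR related proteins 3 of 18 tested genes were higher and 6 were lower. GEMIN6 of the complex that assembles Sm rings was lower on few reads, with 10 and 5 in RbLoTem libraries and 21 and 11 in RbHiTn libraries (log2 fold change -1.12, adjusted p = 0.0472 from edgeR), and the call was lost without RbLoTem library 2, RbHiTn library 1 or RbHiTn library 2 (adjusted p of 0.51, 0.266 and 0.0607 from edgeR). Its log2 fold change was -1.90 without RbLoTem library 1 and -0.47 without RbLoTem library 2. LUC7L2, a U1 associated gene, was lower as well (log2 fold change -0.69, adjusted p = 0.00662 from edgeR), but 0.303% of its reads were unique and the call was lost without RbLoTem library 2 (adjusted p = 0.409, log2 fold change -0.22) or RbHiTn library 1 (adjusted p = 0.0724, edgeR). Its log2 fold change was -1.18 without RbLoTem library 1 (adjusted p = 0.000396, edgeR) and -2.34 on its few unique reads (adjusted p = 0.428, edgeR).

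The 4 highest called changes among these genes belonged to DDX20 and WDR77, which serve the assembly of Sm rings, to USP39 of the tri-snRNP and to ILF2, an RNA binding protein. ILF2 was at an RPKM of 184 and 182 in RbLoTem libraries and 148 and 146 in RbHiTn libraries (log2 fold change 0.33 ± 0.057, adjusted p = 1.66e-05 from edgeR). USP39 was at 77.3 and 76.6 in RbLoTem libraries and 61.1 and 65.3 in RbHiTn libraries (log2 fold change 0.30 ± 0.060, adjusted p = 0.000119 from edgeR). DDX20 was at 12.1 and 9.87 in RbLoTem libraries and 9.03 and 8.12 in RbHiTn libraries (log2 fold change 0.34 ± 0.11, adjusted p = 0.00974 from edgeR), and WDR77 was at 27.0 and 27.1 in RbLoTem libraries and 22.9 and 21.2 in RbHiTn libraries (log2 fold change 0.29 ± 0.093, adjusted p = 0.00917 from edgeR). In all 4 genes both RbLoTem libraries lay above both RbHiTn libraries. The DDX20 call was lost without RbLoTem library 1 (adjusted p = 0.186, log2 fold change 0.20) or RbHiTn library 2 (adjusted p = 0.12), and the WDR77 call without RbHiTn library 2 (adjusted p = 0.117, edgeR). The called share differed by role, with 4 to 29 tested genes in each. It was lowest at the recognition of the branch point and 3′ splice site, 1 of 10 (10%). It was highest among kinases and other SR related proteins, 9 of 18 (50%), beside 48% of all tested models. In the LSM ring 1 of 6 was called (16.7%).

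Reads matched to a single place gave the same picture for most members. With unique exon reads 12 members were higher in RbLoTem cells and 20 were lower, and 28 of the 29 calls were kept. Of the tested members 33 had only unique reads and 5 had under 50% (SRSF2, HNRNPA1, HNRNPA1P48, HNRNPA1P10 and HNRNPL). For HNRNPA1 and HNRNPA1P48 the log2 fold changes on unique reads were 0.28 and 0.62, above those on total reads. SRSF2 was the one member whose change turned direction. A further limit is that 18 tested members overlap another model with reads, and no source used here says whether strand was used in counting.

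**Figure D4:**
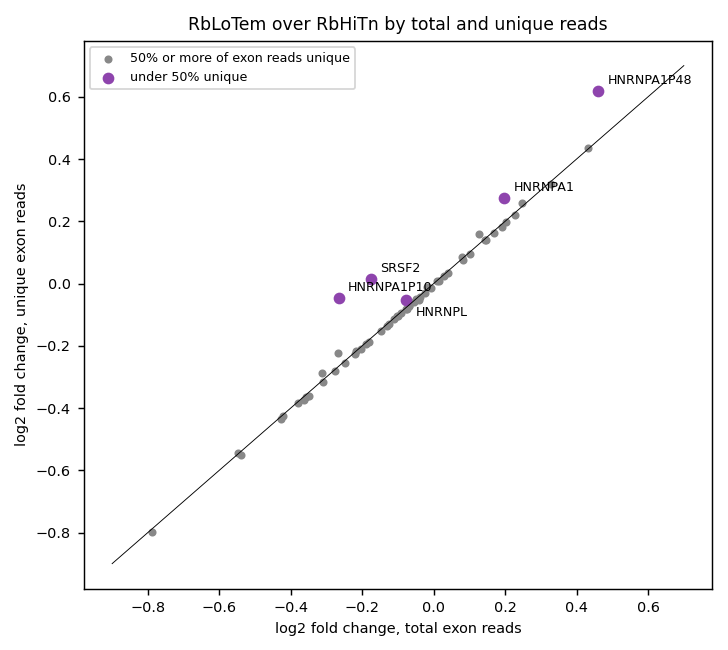
Log2 fold change of RbLoTem over RbHiTn from total exon reads (horizontal) and from unique exon reads (vertical) for the 59 tested members, with the line of equal values. The 5 members under 50% unique reads are named, and SRSF2 lies on the other side of 0 on unique reads.

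Reads within introns could show whether unspliced transcripts of these genes differed, but few were counted. On human models, reads of a mouse intron unlike the human one can also be missed. Of the 65 members with reads 52 had no intron reads, and 3 had enough for the test of intron against exon reads (at least 20 of each), SRSF3, HNRNPA1P48 and HNRNPL. None of the 3 passed (edgeR interaction of read class and subset), beside 17.7% of the 423 models tested, and 1 of the 3 had an unadjusted p under 0.05. For HNRNPL intron reads made up 1.95% and 1.99% of reads in RbLoTem libraries and 2.05% and 2.61% in RbHiTn libraries (adjusted p = 0.329 from edgeR). HNRNPL had 489 intron reads beside 8 intron-exon reads over all libraries. Its model overlaps AC104534.3, and 49.6% of its exon reads were unique, so its intron reads need not show unspliced HNRNPL transcripts. For SRSF3 intron reads made up 0.350% and 0.312% in RbLoTem libraries and 0.401% and 0.425% in RbHiTn libraries (adjusted p = 0.506 from edgeR). For HNRNPA1P48 they made up 3.86% and 3.41% in RbLoTem libraries and 4.94% and 4.18% in RbHiTn libraries (log2 ratio -0.36 ± 0.15, adjusted p = 0.0657 from edgeR). This pseudogene model had 7125 intron-exon reads beside 132 exon-exon reads over all libraries, and 20.2% of its exon reads were unique. Its intron reads therefore need not show unspliced transcripts. In all 3 genes both RbLoTem shares were below both RbHiTn shares, which held for 36.9% of the 423 models. The HNRNPA1P48 difference passed without RbHiTn library 2 (adjusted p = 0.026, edgeR) and on unique reads (adjusted p = 0.0132, edgeR).

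Reads across intron-exon borders were set against reads across exon-exon junctions as a second view. Border and intron reads did not always go together. Over all libraries HNRNPC had 600 border reads and HNRNPA3 had 259, both with 0 intron reads, while SRSF3 had 295 and 99. Border reads on human models therefore need not show unspliced transcripts. All members together had 133 and 135 border reads per 10000 junction reads in RbLoTem libraries and 109 and 109 in RbHiTn libraries, so that their sum was higher in RbLoTem cells. The copy HNRNPA1P48 alone held 1718 and 2408 border reads beside 32 and 47 junction reads in RbLoTem libraries, and 1791 and 1208 beside 31 and 22 in RbHiTn libraries. Leaving out HNRNPA1P48 and HNRNPA1, with which it shares reads, turned the direction, and the other members had 27.7 and 27.8 in RbLoTem libraries and 33.4 and 32.9 in RbHiTn libraries. All other models together had 61.5 and 61.2 in RbLoTem libraries and 68.6 and 69.0 in RbHiTn libraries, also lower in RbLoTem cells. Of the 23 members tested none was called (edgeR), beside 0.781% of 384 models, and 2 had an unadjusted p under 0.05. The log2 ratio was negative for 21 of the 23 members with a median of -0.40, and for 73.7% of all 384 models with a median of -0.31. Both RbLoTem libraries were below both RbHiTn libraries for 13 of the 23 members, where the share of all models is 39.1%.

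The 2 members with an unadjusted p under 0.05 were PRPF8 and HNRNPM. PRPF8 had 7 and 12 border reads in RbLoTem libraries and 22 and 13 in RbHiTn libraries, a log2 ratio of -1.09 ± 0.31 (adjusted p = 0.252 from edgeR). HNRNPM had 5 and 7 in RbLoTem libraries and 20 and 7 in RbHiTn libraries, with the highest number in RbHiTn library 1 (log2 ratio -1.14 ± 0.44, adjusted p = 0.257 from edgeR). Shares differed far more between genes than between subsets. In SRSF4 border reads made up 2.84% and 4.27% in RbLoTem libraries and 3.93% and 4.75% in RbHiTn libraries, and in HNRNPC 3.46% and 2.74% in RbLoTem libraries and 3.05% and 2.98% in RbHiTn libraries. HNRNPLL had 4 and 5 border reads in RbLoTem libraries and 3 and 4 in RbHiTn libraries, too few to test. In HNRNPA1P48 border reads made up 98.2% and 98.1% in RbLoTem libraries and 98.3% and 98.2% in RbHiTn libraries. SNRPG, SNRPE and PRPF38A were among the members with no border reads.

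**Figure D5:**
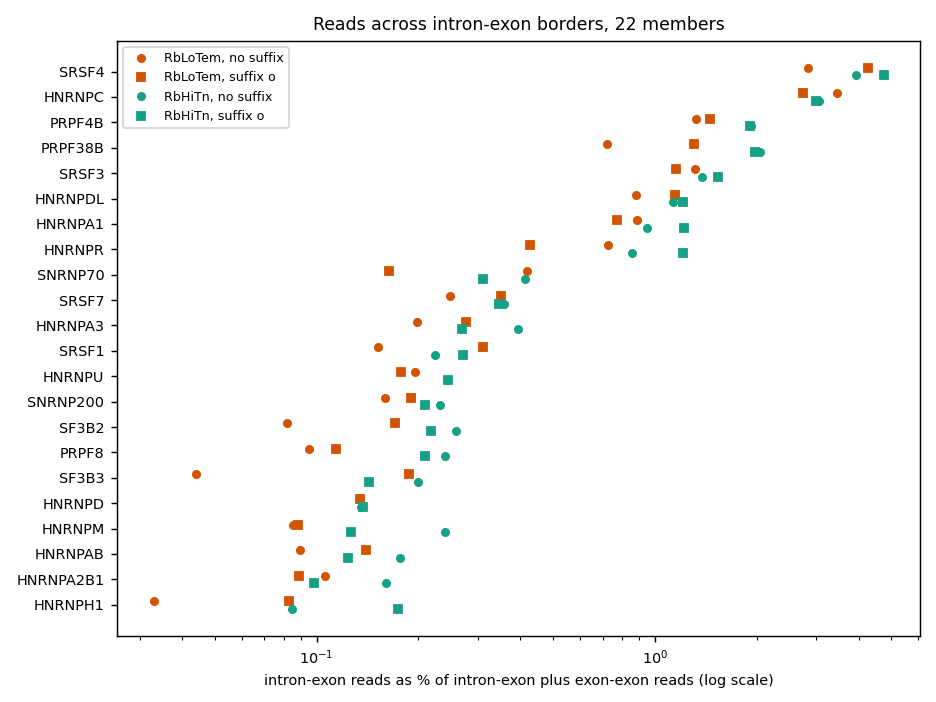
Reads across intron-exon borders as a percent of border plus junction reads (horizontal, log scale) for 22 members down the page, with RbLoTem libraries in orange above RbHiTn libraries in green and circles without and squares with the suffix o. SRSF4 and HNRNPC have the highest shares, and no member has both RbLoTem libraries above both RbHiTn libraries.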

How the data were processed

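Per the labels, mRNA of RbLoTem and RbHiTn cells was sequenced in 2 libraries each. The study's methods name Trimmomatic, TopHat (mm10, Gencode), htseq-count, RPKM in R and DESeq2, while the deposited read counts, RPKM values and median coverage signal per gene model are on human gene models. The sources used here do not say how these tables were made or on which build. The deposited coverage signal was not used. The quasi-likelihood test of edgeR 4.0.16 (R 4.3.3) was run on total exon counts after filterByExpr and TMM scaling, two-sided and with no replicate block, and p was adjusted by Benjamini-Hochberg with a threshold of 0.05. Intron reads are gene minus exon reads. They, and border reads, were tested as the interaction of read class and subset over models with at least 20 of each. Standard errors derive from edgeR's F value. Scripts were tested on simulated data. Tried instead were other scaling and filters, DESeq2 1.42.0, limma 3.58.1 on log2 RPKM with 0.1 or 1 added, unique or gene reads, a test against a log2 change of 0.5, a block on the suffix, and each library left out. Members and lists were chosen with earlier results of these data known. Named genes are the 3 highest and 3 lowest called members of each name group, its most abundant member, HNRNPLL, PTPRC, and 4 other splicing genes in each direction; members beyond these were named to complete the account, after their values were seen. The values of 1 member are not reported here, although it is counted.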

Additional observations from a re-analysis of the deposited data

How the results depend on the processing

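Of the 29 calls, 10 passed in all 15 alternatives other than the test against a size of change, namely SF3B4, HNRNPAB and HNRNPA1P48 (higher in RbLoTem cells) and HNRNPA3, HNRNPD, HNRNPDL, SNRPG, PRPF38B, PRPF4B and PRPF39 (lower). HNRNPA1P48 among these is a pseudogene model that shares reads with HNRNPA1 and may not be a separate call. Members called higher and lower numbered 11 and 18, and 8 and 15 with DESeq2, 3 and 8 with limma on log2(RPKM + 0.1), 3 and 10 on log2(RPKM + 1), and 0 and 0 when tested with edgeR against a log2 change of 0.5, which 559 and 547 of all models passed. Without TMM factors they were 9 and 23, so that 28.1% of the calls were higher instead of 37.9%. Leaving out a library gave 8 to 9 higher and 15 to 19 lower members. Other splicing genes called higher and lower were 15 and 27, and 8 and 16 with DESeq2, 1 and 7 with limma on log2(RPKM + 0.1), 3 and 16 on log2(RPKM + 1), 0 and 1 against the log2 change of 0.5, and 6 to 10 and 19 to 24 without a library, the fewest without RbHiTn library 2 (6) and with 9 each without RbLoTem library 1 or RbHiTn library 1. For intron against exon reads the lower calls were 0, and 1 on unique reads and 0 to 1 without a library. The change of SRSF2 reversed to 0.013 on unique reads, which leave out reads shared between copies. The HNRNPLL call was lost in 5 of the 16 alternatives (adjusted p up to 0.186 with limma, besides the test against 0.5). The cause of these differences between settings was not tested.

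The differences between the libraries without and with the suffix had a correlation of -0.015 between the subsets over all tested models. This value cannot decide whether libraries with the same suffix were paired, since sampling noise enters it and the labels do not explain the suffix. With a replicate block on the suffix 11 members were higher and 17 lower, with 28 of the 29 calls kept, and 10 and 27 of the other splicing genes.

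Replicate libraries of a subset differed beyond sampling noise. The chi-square per degree of freedom was 2.07 (RbLoTem) and 2.06 (RbHiTn) over all models, and 2.65 and 2.76 over the members. This value grows with the number of reads, and members had a higher RPKM, so it does not show a wider spread in members. The spread behind each p-value rests on 2 libraries per subset. In edgeR it is estimated with information shared between all tested models, so a small p-value does not come from a gene's own libraries alone. The low numbers of intron and border reads limit detection in their tests.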
